A study of Mus musculus with 4 samples.

Results

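The CCN family is a group of secreted, cysteine-rich matricellular proteins, which sit in the extracellular matrix and signal to cells rather than give the matrix its strength. Its 6 genes were listed by their older symbols, Cyr61 (now Ccn1), Ctgf (Ccn2), Nov (Ccn3), Wisp1 (Ccn4), Wisp2 (Ccn5) and Wisp3 (Ccn6), and every non-control probe carrying one of these symbols was taken. This gave 5 probes for 5 of the 6 genes, among 41174 probes and 27745 gene names on the array. Wisp3 had no probe under that name and has no value here.

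RNA levels of mouse embryonic fibroblasts (MEFs) were read on arrays. The cells were of the C57BL/6J strain, labelled Lats2-/- (KO) or Lats2+/+ (WT), and each genotype was grown at low density (48 h, subconfluent) or at high density (3 to 5 days). Culture time and density therefore changed together, and no group differed in density alone. All cultures were kept in DMEM with inactivated fetal bovine serum, penicillin and streptomycin, and 500 ng of total RNA was labelled for each channel. The series holds 4 Agilent arrays that read both densities of a genotype in Cy3 and Cy5, with the dyes exchanged on the second array of each genotype. A dye-swap pair was counted as 1 replicate, so that each genotype and density has 1 sample read in 2 dyes, and the spread between dyes is technical. Embryo age, the number of embryos and whether the arrays of a pair shared RNA extracts are not given in the sources used here.

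CCN proteins bind integrins, heparan sulfate proteoglycans and growth factors, and through them act on adhesion, migration and matrix turnover. They are built from shared modules, of which Wisp2 lacks the C-terminal cystine knot. In fibroblasts Cyr61 and Ctgf are textbook targets of YAP and TAZ, the coactivators that the Hippo kinases Lats1 and Lats2 restrain in crowded cells and that bind DNA through TEAD factors. Wisp1 and Wisp2 took their names from induction by Wnt1.

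The promoter of Cyr61 is shown because it was the only one at hand among the 5 members with a probe. Those of Ctgf, Nov, Wisp1 and Wisp2 were not analysed here. A promoter of Wisp3, which has no value here, was at hand but is not shown. RefSeq gives that of Cyr61 at chr3:145649986-145650235 (GRCm38.p6, minus strand), which are the 250 bases before the annotated start, written 5′ to 3′ along the gene. The capitals mark the only match to the TEAD motif GGAATG, here on the opposite strand and so read as CATTCC.
Cyr61: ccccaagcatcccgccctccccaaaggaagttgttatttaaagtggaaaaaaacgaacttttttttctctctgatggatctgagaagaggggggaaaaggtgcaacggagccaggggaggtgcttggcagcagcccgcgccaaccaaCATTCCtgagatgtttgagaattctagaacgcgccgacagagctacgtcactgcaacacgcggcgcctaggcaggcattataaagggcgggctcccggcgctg

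The match lies 103 to 98 bases upstream of the start. On either strand, GGAATG occurs in 12.6% of the 32851 promoter windows of this length. No match was found in the Cyr61 window for the SMAD palindrome GTCTAGAC (held by 0.167% of promoters), the shorter SMAD motif CAGAC (42.2%), the AP-1 motif TGANTCA (6.75%) or the CArG box of serum response factor (1.47%), all searched on both strands. With no match in the window, none of these other motifs could overlap the TEAD match. A match is a string of letters, and binding was not measured.

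A channel had 52.8% to 67.7% of its features well above background, and no feature was saturated. On the log2 scale an array deviated from the mean of its dye-swap pair with an SD across probes of 0.0987 for WT and 0.143 for KO. The WT arrays shared 1 slide and 1 scan and the KO arrays had a slide each, so slide and genotype cannot be told apart in any difference between genotypes. A density ratio compares the channels of 1 array and so of 1 slide. Of the 4 Lats2 probes, 3 read higher under the KO label at both densities (log2 differences of 0.91 to 1.49) and the remaining probe read lower (-0.63 and -1.26). The higher probes lie together at chr14:56644080-56645305 (mm8) and the lower one apart from them at chr14:56676512-56676571. KO and WT below therefore mean the labels. All 9 fibroblast markers were well above background in every channel.

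Markers of other cell types were few but not constant. The endothelial list had 1 or 2 of 6 genes above background, without Pecam1 and Cdh5, and its summed intensity was 8096 to 8790 in KO at low density against at most 2755 in the other groups. The macrophage list had 3 or 4 of 7, without Ptprc, Emr1 and Itgam, and summed to 957 to 1058 in WT and 1725 to 5617 in KO. Its detected genes did not move together. Lyzs, not well above background in WT at low density, had log2 ratios of KO over WT of 3.90 at low and 4.75 at high density. Cd14 was at -1.80 and -1.59 and Cd68 at -0.10 and -0.38, while Csf1r differed in sign between dyes. Chondrocyte markers, with Col9a1 and Matn1 not well above background, summed to 1770 to 2107 in KO at low density and to 6361 to 8981 elsewhere. The neural list, with Sox2 and Gfap not well above background, summed to 10671 to 10900 in WT at low density and to at most 2679 elsewhere. Epithelial markers summed to 413 to 508 in all groups, with Cdh1 and Krt8 not well above background. The part of these markers in the results was not tested, and in RNA of a whole culture fewer cells of a type and less RNA per cell cannot be told apart.

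**Figure D1:**
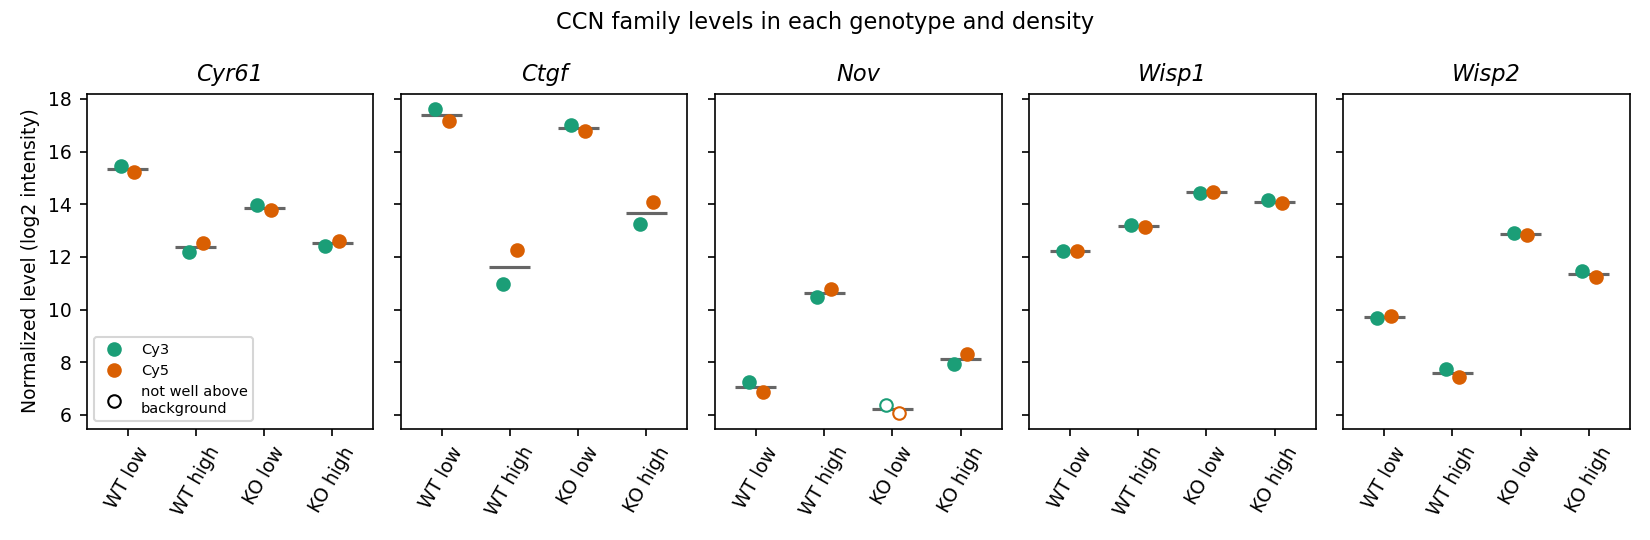
Normalized log2 intensity (y axis) of the 5 CCN probes in each genotype and density (x axis), with a point for each dye, a line at the mean and open circles where the signal was not well above background. Ctgf in WT goes from 17.39 at low density to 11.62 at high density, Nov in WT from 7.05 to 10.64, and Wisp2 stands higher in both KO groups than in both WT groups. Levels compare groups within a panel and not genes between panels.

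Across the family, Ctgf, Cyr61 and Wisp2 were lower and Nov was higher in the high density cultures of both genotypes, while Wisp1 stayed under 2-fold in both. A value was called where the average log2 ratio reached 1 or -1 and the arrays (or dyes) of the pair had one sign. By this rule 4 of 5 members were called in WT, where 13.3% of 22591 tested probes were (7.61% higher, 5.72% lower), and 4 of 5 in KO, against 9.62% of 23596 (5.9% higher, 3.73% lower). In each genotype 3 of the called members were lower and 1 was higher. Calls in the same direction in both genotypes were made for 4 of 5 members and for 4.79% of 21546 probes, 3 members being lower in both (1.68% of probes) and 1 higher in both (3.11%). The last is Nov, which entered the KO contrast only through its high density side. With probes detected in every channel of a genotype, Nov dropped out in KO, and the lower calls of Ctgf, Cyr61 and Wisp2 stayed. The rule describes these cultures and is not a test, because each genotype and density is a single sample.

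Ctgf, the connective tissue growth factor that promotes matrix deposition in fibrosis and wound repair, had the strongest response of the family in WT. Its probe (A_51_P157042, read for NM_010217) lies at chr10:24287891-24287950 on the plus strand of build mm8. In WT its log2 level was 17.63 (Cy3) and 17.15 (Cy5) at low density and 10.97 and 12.27 at high density. In KO it was 17.03 and 16.78 at low density and 13.24 and 14.07 at high density. Every low density reading was above every high density reading, and the dyes stood farthest apart in WT at high density.

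The level of Ctgf fell by 5.77 on the log2 scale in WT (arrays -5.35 and -6.18), a 54.4-fold change, and by 3.25 in KO (-2.96 and -3.54), a 9.51-fold change. In WT this was the lowest of all 22591 density effects, and in KO it was the fifth from the bottom of 23596. The order of its mean levels was WT low (17.39), KO low (16.90), KO high (13.66) and WT high (11.62). The first step was 0.48 and no neighbours overlapped between dyes.

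The response of Ctgf was smaller in KO. The KO density effect exceeded the WT effect by 2.52 (2.40 and 2.64), past the 2-fold rule that 8% of 21546 probes passed for this difference (3.78% positive, 4.22% negative). KO over WT at low density was -0.48 (-0.60 and -0.37), which was not called. At high density it was 2.03 (1.80 and 2.27), or 4.09-fold. The called gap between the genotype labels was in the crowded cultures, where the WT level was lowest.

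Cyr61, an angiogenic and adhesive integrin ligand that is induced early by serum, followed Ctgf in direction. Its probe (A_51_P252859, NM_010516) lies at chr3:145584609-145584668 on the minus strand of mm8. At low density the log2 level was 15.47 and 15.21 in WT (Cy3 and Cy5) and 13.96 and 13.79 in KO. At high density it was 12.19 and 12.53 in WT and 12.43 and 12.61 in KO. The WT and KO readings were separate at low density and overlapped at high density.

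Cyr61 fell by 2.98 in WT (-2.94 and -3.02, 7.89-fold) and by 1.35 in KO (-1.34 and -1.36, 2.56-fold). The difference of 1.62 (1.60 and 1.65) was called. Its genotype gap lay at the other density from that of Ctgf, with a log2 ratio of KO over WT of -1.47 in sparse cultures (-1.51 and -1.42, 2.76-fold) and of 0.16 in dense ones (0.08 and 0.24, not called). The order was WT low (15.34), KO low (13.87), KO high (12.52) and WT high (12.36), and the last step of 0.16 was within the spread between dyes.

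Nov (nephroblastoma overexpressed), which is often described as opposing Ctgf and restraining proliferation, went the other way. Its probe (A_52_P105537, NM_010930) lies at chr15:54582732-54582791 on the plus strand of mm8. The log2 level in WT was 7.24 and 6.87 at low density (Cy3 and Cy5) and 10.48 and 10.79 at high density. In KO it was 6.37 and 6.05 at low density and 7.95 and 8.32 at high density. Nov was not well above background in either dye in KO at low density, so values set against that group are bounds.

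In WT, Nov rose with density by 3.59 (3.55 and 3.62), or 12.0-fold, and stood 51st from the top of 22591 probes. In KO the measured rise was 1.92 (1.95 and 1.89), with means of 8.13 against 6.21, and was at least 3.75-fold. The log2 ratio of KO over WT at high density was -2.51 (-2.48 and -2.54), or 5.68-fold, and was called. At low density KO was at least 1.77-fold lower (-0.84, not called), with means of 7.05 in WT and 6.21 in KO. The measured rise in KO was 1.66 smaller than in WT (difference -1.66, arrays -1.61 and -1.72), but with the software's own processed signals, which keep more of the change at dim spots, this difference was -0.28 and no longer called.

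Wisp1 (Wnt1-inducible signaling pathway protein 1), which promotes fibroblast and osteoblast growth, was the member with the smallest response to density. Its probe (A_51_P220343, NM_018865) lies at chr15:66752744-66752803 on the plus strand of mm8. The log2 level in WT was 12.21 in both dyes at low density and 13.23 and 13.12 at high density. In KO it was 14.43 and 14.47 at low density and 14.17 and 14.03 at high density. All KO readings were above all WT readings.

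The density effect of Wisp1 was 0.96 in WT (0.91 and 1.02, 1.95-fold) and -0.35 in KO (-0.40 and -0.30), and neither was called. The difference between them, -1.31 on both arrays, was called. KO over WT was 2.24 in sparse cultures (2.22 and 2.25, 4.71-fold), which was called, and 0.93 in dense ones (0.91 and 0.94, 1.90-fold), which was not. The order was KO low (14.45), KO high (14.10), WT high (13.17) and WT low (12.21), with no overlap between dyes at any step. The WT effect lay close to the rule and passed it with the processed signals and without WT replicate 1 (1.02).

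Wisp2, the short member without the C-terminal module, had the widest gap between genotype labels. Its probe (A_51_P390804, NM_016873) lies at chr2:163524422-163524481 on the plus strand of mm8. In WT the log2 level was 9.69 and 9.77 at low density (Cy3 and Cy5) and 7.73 and 7.43 at high density. In KO it was 12.89 and 12.82 at low density and 11.45 and 11.23 at high density. Both KO groups were above both WT groups.

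In sparse cultures Wisp2 was higher in KO by 3.12 (3.20 and 3.05, 8.72-fold), and in dense ones by 3.76 (3.80 and 3.71, 13.5-fold). It fell with density by 2.15 in WT (-2.26 and -2.04, 4.45-fold) and by 1.52 in KO (-1.67 and -1.37, 2.87-fold). The difference of 0.63 (0.60 and 0.67) was not called, but it was 1.20 and called with the processed signals. The order was KO low (12.86), KO high (11.34), WT low (9.73) and WT high (7.58), without overlap between dyes.

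**Figure D2:**
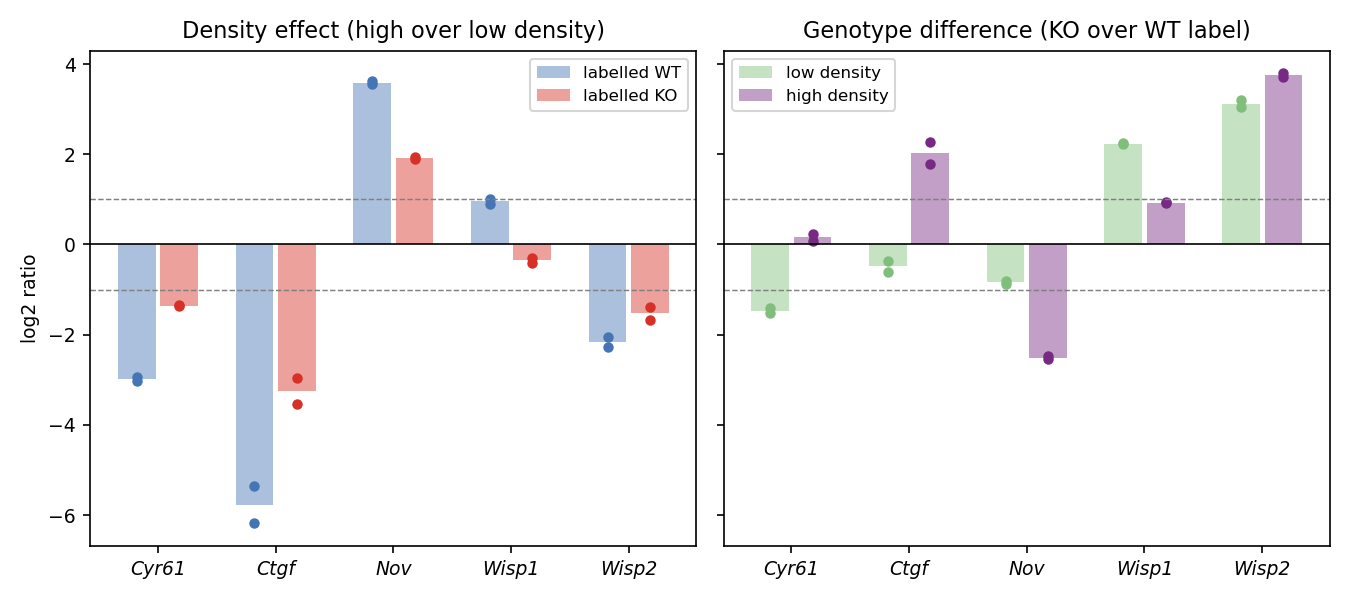
Log2 ratios (y axis) of the 5 CCN genes (x axis), for high over low density in each genotype on the left and for KO over WT at each density on the right, with bars for means, points for the 2 arrays or dyes and dashed lines at the 2-fold rule. The density bars point the same way in both genotypes for Cyr61, Ctgf, Nov and Wisp2 and in opposite ways for Wisp1, while Wisp2 is at 3.12 and 3.76 over WT.

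Between the labels, 3 of 5 members were called at low density, where 13.9% of 23339 probes were (6.86% higher, 7.07% lower in KO). In dense cultures 3 of 5 were called, and 13% of 23617 probes (6.41% higher, 6.62% lower). At low density these were Wisp1 and Wisp2, higher in KO, and Cyr61, lower in KO. At high density they were Ctgf and Wisp2, higher in KO, and Nov, lower in KO. Wisp2 was called at both densities. So was Nov with an offset of 10 (-1.39 at low density) and with the processed signals (-2.52), its KO level there not being well above background. The difference of the density effects was called for 4 of 5 members, against 8% of probes, and was positive for Ctgf and Cyr61 and negative for Nov and Wisp1. The call for Nov rests on KO spots at low density that were not well above background, and it was made in 8 of 11 settings.

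**Figure D3:**
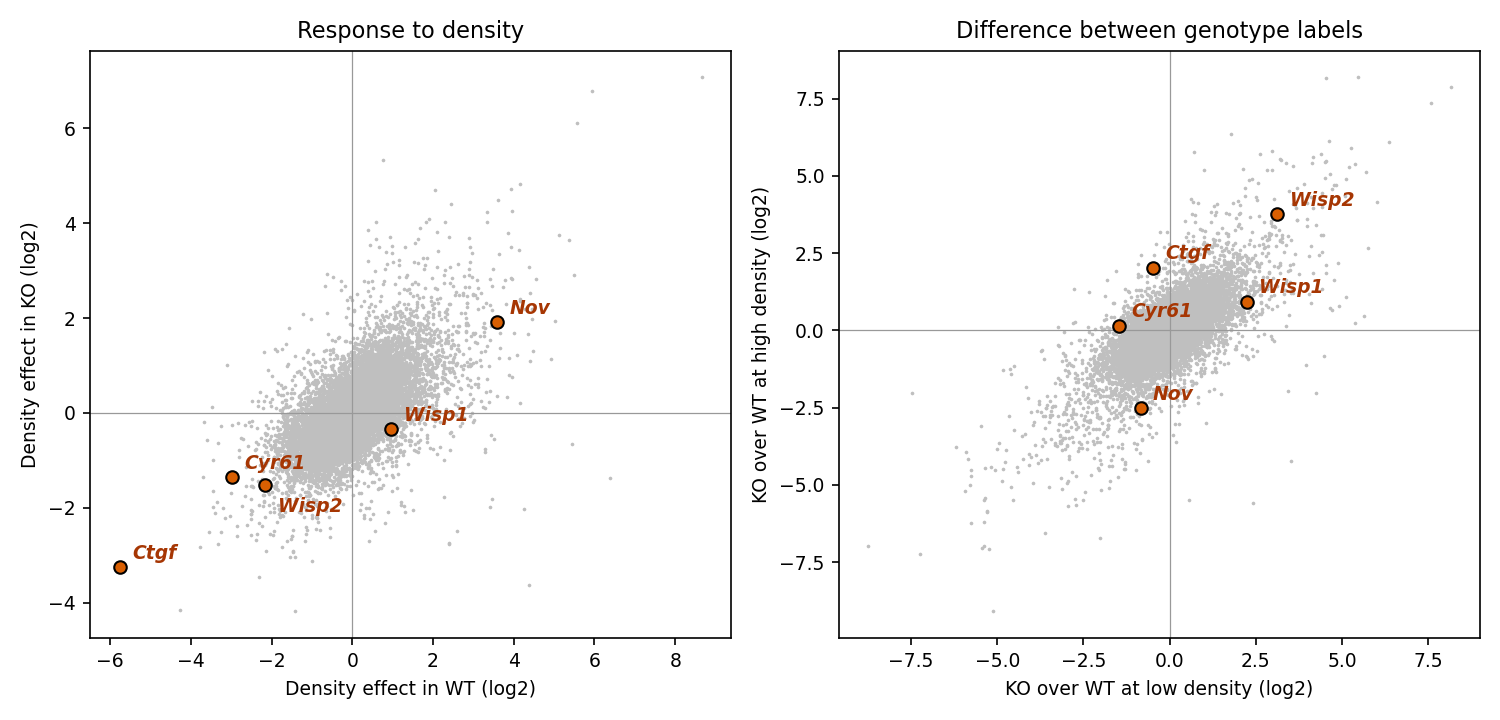
Each grey point is a probe, and the CCN members are orange. The left panel sets the log2 density effect in WT (x axis) against that in KO (y axis) over 21546 probes, where Ctgf is farthest to the left. The right panel sets the log2 ratio of KO over WT at low density (x axis) against that at high density (y axis) over 22355 probes, where Wisp2 lies at 3.12 and 3.76. The axes of the right panel share arrays, and no slope is read from either panel.

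The mean density effect over both genotypes was tested with limma on 21546 probes, taking the mean of each dye-swap pair as 1 observation and hence 2 observations in all. By limma 0 probes passed an adjusted p of 0.05 (0%), the smallest adjusted p being 0.0667, while 6391 (29.7%) had an unadjusted p under 0.05. A mean of 2-fold or more, whatever its p, was seen for 4 of 5 members and 9.45% of probes. The t-test of the paper's methods, stated there for KO MEFs, was applied here to this common effect and so does not repeat the paper's comparison. This t-test gave 436 probes at 2-fold and an unadjusted p under 0.05, and 0 after Benjamini-Hochberg adjustment. No member passed. The common effect of Wisp2 was -1.84 (SE 0.224, 95% interval -2.46 to -1.21, limma adjusted p = 0.072). That of Ctgf was -4.51 (SE 0.649, -6.31 to -2.70, limma adjusted p = 0.0763). Both intervals lie below 0 and both genotypes shared the direction.

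For Nov no error or p is given, because its KO value is a bound, and the measured mean was 2.75. Cyr61 had -2.17 (SE 0.436, -3.38 to -0.95, limma adjusted p = 0.0865). Wisp1 had 0.31 (SE 0.364, -0.70 to 1.32, limma adjusted p = 0.605), an interval that spans 0. The SE here holds the difference between the density effects of the genotypes as well as error. It was largest for Ctgf, with a difference of 2.52, and smallest for Wisp2, with 0.63.

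The genes whose 8 channel levels lay nearest to each member, among the 19500 probes that every channel detected, were found by Euclidean distance after removing each probe's mean within a dye. For Wisp1 the nearest were Abca5 (distance 0.204), Dpp7 (0.242) and Tspan7 (0.260), a lipid transporter, a lysosomal peptidase and a tetraspanin. Abca5 was at 1.04 in WT and -0.23 in KO for density and at 2.17 and 0.91 for the genotype difference at low and high density. Another Abca5 probe that was measured in WT gave -0.02 there, so this likeness belongs to 1 probe.

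Cyr61 was nearest to Galntl4 (now Galnt18, 0.623), an enzyme family member that starts O-linked glycans, Pbp2 (0.761) and the chaperone gene Hspa4l (0.885). Galntl4 fell with density by 2.63 in WT and by 1.13 in KO, and KO was lower than WT at low density (-1.13) and at 0.37 at high density. A second Galntl4 probe gave -0.90 and -0.26 for density. The nearest genes to Ctgf lay farther off. They included Thbs1 (2.95), a matricellular thrombospondin, and Ankrd1 (3.07), an ankyrin repeat protein of stressed muscle, which are also listed YAP/TAZ targets.

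Thbs1 fell by 3.45 in WT and by 1.63 in KO, and stood 1.93 higher in KO at high density. Wisp2 was nearest to BB657751 (1.45), C530008M17Rik (now Cracd, 1.76) and Hoxb9 (1.84), a homeobox gene. Hoxb9 was higher in KO by 2.03 in sparse and by 3.81 in dense cultures. Its density effect was -1.73 in WT but 0.05 in KO, where Wisp2 fell. A second Hoxb9 probe gave -0.88 and 0.63. Nov had no such search because only 6 of its 8 channels were well above background.

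Genes that act with the family were counted in 5 lists, each gene by its brightest probe, and set beside all genes counted the same way, of which 15.5% were called in WT, 11% in KO, 9.53% for the difference, 15.7% between labels in sparse cultures and 14.5% in dense ones. Medians over all genes were 0.02 to 0.06. These counts describe the lists and no list was tested. The receptors and binding partners of CCN proteins (integrins, low density lipoprotein receptor-related proteins, proteoglycans and growth factors they hold) had 3 of 19 genes higher and 6 lower with density in WT (median -0.19) and 5 higher and 1 lower in KO (0.07). In this list the small proteoglycan Dcn was at 5.57 in WT and 6.12 in KO.

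The fibronectin receptor subunit Itga5 was at -2.18 in WT and -0.68 in KO, and the laminin receptor subunit Itga6 at -1.04 and -1.73. A second Dcn probe did not pass the background filter in WT and gave 2.86 in KO. For the difference between genotypes, 3 of 19 were higher and 0 lower. Of these, picked after their values were seen, Itgb3, which pairs with Itgav in the CCN-binding vitronectin receptor, had 3.01 (-2.10 in WT, 0.92 in KO), and Fn1, fibronectin, had 2.63 (-1.60 in WT, 1.03 in KO). The array holds 2 probes of Itgb3 and 4 of Fn1, and only the brightest of each is given here. Between labels, 2 were higher and 5 lower in KO at low density, and 6 higher and 4 lower at high density.

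The transcription factors known to act on CCN promoters had 1 of 21 higher and 3 lower with density in WT, and 2 of 22 higher and 3 lower in KO, with medians of -0.23 in both. Srf, serum response factor, was at -1.52 in WT and -0.83 in KO. The AP-1 factor Fosl1 was at -0.86 and -2.31. Tcf4, the highest of the list at 1.37 and 1.95, is by this symbol the E-protein E2-2 and not the beta-catenin partner Tcf7l2, so its place in the list is an error of naming. Without it, a choice made after seeing the data, 0 of 20 were higher and 3 lower in WT, and 1 of 21 higher and 3 lower in KO. For the difference 1 of 21 was higher and 2 lower, and between labels 2 of 22 were higher and 3 lower at low density and 2 of 21 higher and 4 lower at high density.

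Genes for inducers of the family (among them transforming growth factor beta ligands and receptors, Wnt ligands and lysophosphatidic acid signaling) had 4 of 14 higher and 4 lower in WT, and 3 of 15 higher and 2 lower in KO. Among the ligands, values of opposite sign were seen, with Tgfb2 at 2.28 in WT and -0.20 in KO and Tgfb3 at -1.86 in WT and 1.31 in KO. Enpp2, which makes lysophosphatidic acid, was at 1.68 and 1.75, and a second Enpp2 probe was not well above background in any channel. Rock2, a kinase that acts on the actin cytoskeleton, was at -1.05 and -1.21. The medians were -0.01 in WT and -0.13 in KO. For the difference 1 of 14 was higher and 1 lower, and between labels 3 of 14 were higher and 1 lower at low density and 4 of 15 higher and 3 lower at high density.

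The YAP/TAZ target genes outside the family had 3 of 25 higher and 12 lower with density in WT (60% called, median -0.85), and 2 of 24 higher and 9 lower in KO (45.8%, median -0.34). Of 24 measured in both, 8 were called lower in both. Over all probes, not reduced to the brightest of each gene, 1.68% of 21546 were. Ankrd1 was at -3.34 in WT and -2.76 in KO. Gas6, a ligand of the Axl receptor, was at 2.64 in WT and -0.10 in KO, and Fstl1, a follistatin-like glycoprotein, at 0.68 and 2.36. The difference was higher for 8 of 24 and lower for 4. Between labels 4 of 25 were higher in KO and 0 lower at low density, and 11 of 24 higher and 3 lower at high density (median 0.75). Lats2 is itself in this list. Without it, again chosen after seeing the data, the counts were 3 of 24 higher and 0 lower at low density and 10 of 23 higher and 3 lower at high density (median 0.67), and 7 genes were called lower with density in both genotypes.

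**Figure D4:**
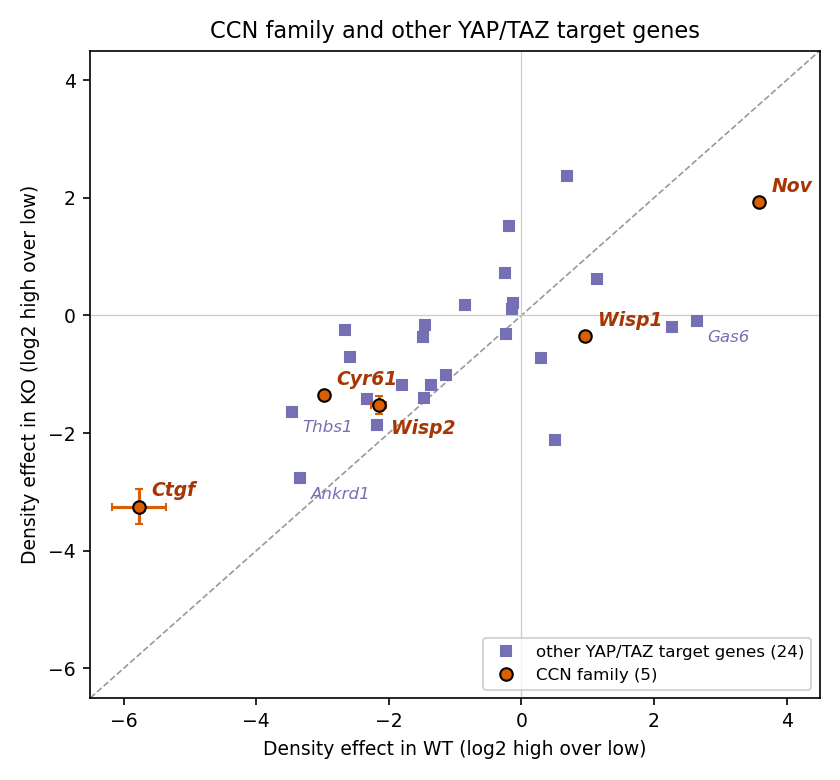
Log2 density effect in WT (x axis) against KO (y axis) for the 5 CCN genes (orange circles, bars spanning the 2 arrays of a genotype) and 24 other YAP/TAZ target genes (purple squares), with a dashed line where both effects are equal. Ctgf, Cyr61 and Wisp2 lie in the lower left with 13 of the squares, Nov lies in the upper right, and Wisp1 lies just below 0 in KO.

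Matricellular proteins outside the family had 7 of 14 higher and 3 lower with density in WT (71.4%, median 0.98), and 6 of 11 higher and 2 lower in KO (72.7%, median 1.21). Postn, periostin, was at 5.02 in WT and 1.94 in KO, and Smoc2, a calcium-binding matrix protein, at 1.16 and 3.12. Spp1, osteopontin, was at -1.42 in WT and -4.18 in KO. Over all genes 1399 were higher and 906 lower in WT, and 1102 higher and 598 lower in KO. For the difference 4 of 11 were higher and 5 lower, and between labels 2 of 13 were higher and 3 lower at low density and 5 of 14 higher and 6 lower at high density.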

How the data were processed

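Mouse embryonic fibroblasts were profiled on 4 2-colour Agilent arrays, 2 per genotype label. The labels gave genotype, density and dye, and name the gene LAT2 in the source name but Lats2 as genotype (the latter was used). The authors extracted the scans with Agilent Feature Extraction 10.5.1.1, and per the file headers each deposited file holds raw and background intensity in Cy3 and Cy5, with a score of 0 or 1 for each quality flag. The deposited files also hold processed intensity and a log10 ratio of Cy5 over Cy3 made by that software. The deposited series matrix holds a log10 ratio of high over low density, which differed from the scanner ratio by less than 0.005 and had a median of 0 on each array.

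R 4.3.3 with limma 3.58.1 corrected background by normexp (offset 50, which shrinks ratios of dim spots) and normalized each array by loess. Features of a probe were averaged, without outlier-flagged ones. Single-channel log2 levels came from Aquantile, and KO was compared with WT within a dye. A probe entered a density contrast if at least 1 density was well above background on the whole pair, and a genotype contrast if at least 1 genotype was so in both dyes. Bounds set the dim side at the higher of its own signal and the dimmest detected probe of that array. The mean density effect was tested with limma on the 2 pair means (Benjamini-Hochberg). No test was possible within a genotype or a density, and the p-values measure only the spread between genotypes.

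Named genes are all members, the 3 nearest to each, and per list the highest and lowest density effect in each genotype. Itgb3 and Fn1 fall outside this rule, and 1 gene that it names is not reported here. Members, lists and rules were chosen with earlier results of these data known. Probe positions are the array's (mm8), and exons were not assigned. Promoters and current names came from RefSeq (GRCm38.p6), where all 5 symbols with a probe matched. The rules were tested on simulated data. Alternatives were another offset, processed signals, other scalings and filters, the series matrix, a 1.4-fold threshold and leaving out each array. The number of arrays limits the precision.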

Additional observations from a re-analysis of the deposited data

Results flagged for a closer look

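The density effect of Wisp1 differed in direction between the labels. It was 0.96 in WT, where both arrays were above 0, and -0.35 in KO, where both were below 0. With 1 replicate per genotype this difference was not tested. The sizes were under the 2-fold rule in both genotypes.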

How the results depend on the processing

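All 30 member values kept their direction under every alternative except the common effect of Wisp1, which was -0.11 with median centring. Counts over all probes moved more. With the processed signals they were 5829 (density, WT), 4866 (density, KO), 3150 (difference), 6460 (genotype, low density) and 6081 (genotype, high density), and with the series matrix 5824, 4858 and 3148 for the first 3. The 1.4-fold threshold gave 8578, 8168, 6126, 9395 and 8877. For the common effect the limma count of 0 became 325 with an offset of 10, 287 with processed signals, 302 with the series matrix, 195 among probes detected in all channels and 3 with median centring, and the methods' t-test gave 436 unadjusted. Leaving out an array gave 0 to 150 common calls, the 150 without KO replicate 1. Median centring moved the share of higher calls from 57.1% to 43.9% in WT and from 61.3% to 40.3% in KO.

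The common value of Nov, whose KO side is a bound, was 2.74 to 4.39 and passed limma's threshold in 3 of 12 settings, which is not read as a test. Among probes detected in all channels Nov was not tested and 0 of 4 members passed. Its KO density effect was 1.89 to 4.25 over the alternatives and its genotype difference at low density -2.52 to -0.81. Wisp1 at high density passed the rule with a common median (1.01). No paired analysis was possible because the labels number no replicates and nothing links an array of one genotype to an array of the other. The densities were compared within an array throughout.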
